A study of Mus musculus and Homo sapiens with 10 samples.

Results

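ACTB and ACTG1 encode beta-actin and gamma-actin, the 2 actins of the non-muscle cytoskeleton, and Actb and Actg1 are their mouse counterparts. The peaks of 10 chromatin immunoprecipitation sequencing (ChIP-seq) lists were taken at these 4 genes, with 5 kb added on either side of each gene interval. For Actg1 the interval was a rounded stretch of 7000 bp, longer than the gene, against 3608 bp for Actb. Of the 208002 peaks of all lists 33 qualified: 6 at ACTB, 3 at ACTG1, 12 at Actb and 12 at Actg1. The counts at Actb and Actg1 come from windows of unlike length. The genes were chosen by peaks already seen at them in these lists. The presence, width and overlap of peaks there are therefore descriptions, with no test.

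Actins form the filaments that give a cell its shape and drive its movement. Both genes are transcribed by RNA polymerase II (Pol II) at high levels in most cells, and serum raises their transcription through the factor SRF, which binds the CArG box. The upstream binding factor UBF is known as a factor of RNA polymerase I (Pol I). It spreads along the ribosomal RNA genes, bends their DNA and has little sequence preference. H3K4me3, H3K9ac and acetylated H4 mark active promoters and open chromatin, and H3K9me3 marks silent chromatin.

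The tumorigenic line was HMLER, derived from HMEC by expression of TERT, the SV40 large-T antigen and HRASV12G, an oncogenic HRAS allele, and UBF was mapped in it. HMEC, mammary epithelial cells immortalized by TERT, gave a list for UBF and one for Pol I. NIH3T3, immortalized mouse fibroblasts, gave 7 lists: UBF, both polymerases, H3K9me3 and the active marks H3K4me3, H3K9ac and H4 hyperacetylation. The Pol I antibodies were raised against the largest subunit, and the Pol II antibody was directed at the phosphorylated C-terminal repeat of Pol II. All cells were harvested while growing exponentially. HMLER and HMEC were kept in HuMEC ready medium and NIH3T3 in DMEM with 10% FBS. Each list stands for 1 sample, the lists hold positions alone, and the read depth is unknown. No difference between lines or antibodies could be set against replicate error.

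The promoter of Actg1 is shown because UBF, Pol I, Pol II and every histone mark had a peak in the interval of this gene. The sequence holds the 250 bases before the start that RefSeq gives, on the minus strand of GRCm38.p6 (chr11:120348496-120348745). Capitals mark, in this order, an E-box, a CCAAT box and a CArG box.
Actg1 promoter: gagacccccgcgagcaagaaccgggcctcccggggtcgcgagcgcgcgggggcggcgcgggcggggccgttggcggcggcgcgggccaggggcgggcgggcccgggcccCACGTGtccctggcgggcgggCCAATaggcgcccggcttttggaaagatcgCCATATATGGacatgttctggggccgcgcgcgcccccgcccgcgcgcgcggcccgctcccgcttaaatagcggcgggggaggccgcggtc
The CArG box begins 90 bases before the start, the CCAAT box 120 and the E-box 141. A CArG box was present on either strand in 1.47% of the 32851 promoter windows of the same length, CCAAT in 33.8% and the E-box, searched as CACGTG, in 6.02%. GGGCGG occurred at 6 places in this window and in 32.7% of all windows, and TATAAA did not occur in it, against 12.4% of all. A pair of GGGCGG matches overlapped each other, and no other matches did. The GC content was 79.2%, against a median of 52.4%, and 1.56% of windows were as rich. The peaks are in mm9, so their place relative to this sequence was not read.

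In human cells UBF was present at both actin genes, and its peaks in HMLER covered each gene from end to end. The hg19 interval of ACTB runs from 5566779 to 5570232 on chromosome 7 and that of ACTG1 from 79476997 to 79479892 on chromosome 17. Both genes are read from high to low coordinates, so the upper end is the start of the gene.

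At ACTB the HMLER list held a peak of 6667 bp, from 5565027 to 5571694, which reached 1462 bp beyond the start of the gene and 1752 bp beyond its end. A second HMLER peak of 899 bp began 10 bp further on. In HMEC the same stretch held 4 separate UBF peaks. A peak of 1177 bp, from 5567320 to 5568497, and one of 498 bp, from 5568637 to 5569135, lay inside the gene, 140 bp apart. A peak of 439 bp lay 1067 bp before the start, and one of 323 bp lay 1544 bp past the end. The HMEC peaks outside the gene thus lay near the 2 edges of the wide HMLER peak, with 395 and 208 bp inside it.

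At ACTG1 the HMLER list held a peak of 8107 bp, from 79475266 to 79483373, reaching 3481 bp beyond the start and 1731 bp beyond the end. A second peak of 878 bp followed after 1099 bp, and lay 4580 bp before the start. HMEC held 1 UBF peak there, of 1746 bp, from 79477644 to 79479390, which lay wholly inside the gene and inside the wide HMLER peak. Past the end of the gene the wide HMLER peak reached almost as far at ACTG1 as at ACTB, and before the start it reached further at ACTG1.

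**Figure D1:**
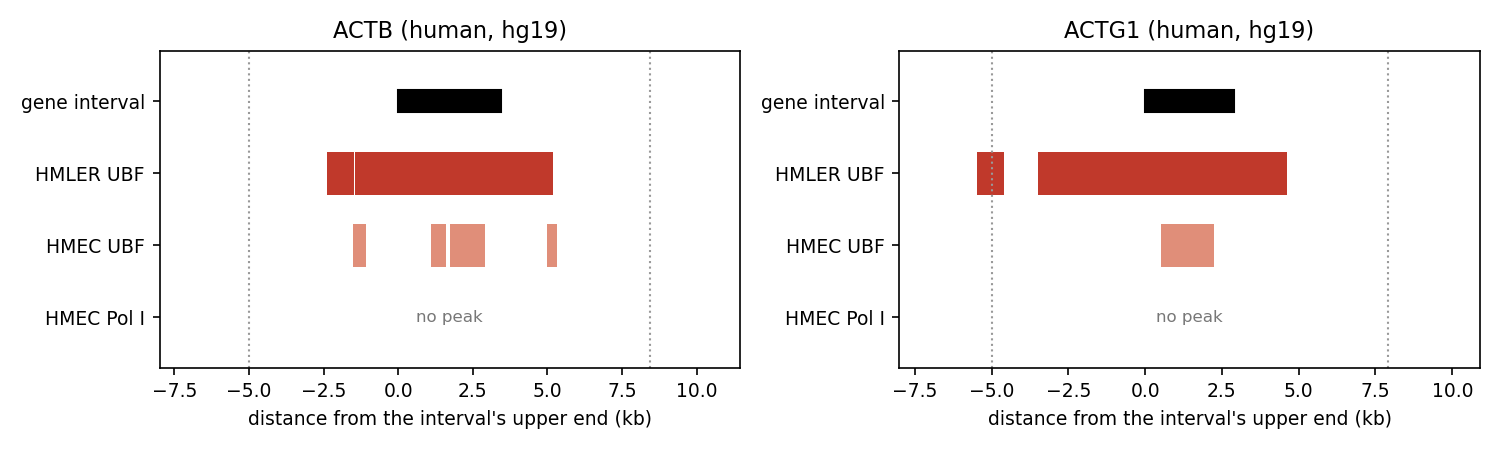
Peaks at ACTB and ACTG1 in HMLER (UBF) and HMEC (UBF and Pol I), plotted as distance in kb from the upper end of the gene interval, which is the start of the gene (negative values lie before it). Dotted lines mark the 5 kb margin. The wide HMLER peaks of 6667 and 8107 bp span both genes, the HMEC UBF peaks are shorter, and no HMEC Pol I peak appears; the 10 bp gap between the 2 HMLER peaks at ACTB is too small to see.

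UBF thus covered 100% of ACTB in HMLER and 48.5% in HMEC, and 100% of ACTG1 in HMLER and 60.3% in HMEC. With the margins included, UBF covered 7566 bp at ACTB in HMLER and 2437 bp in HMEC, a ratio of 3.10. At ACTG1 it covered 8527 bp in HMLER and 1746 bp in HMEC, a ratio of 4.88. Within the genes alone the ratios were 2.06 and 1.66, where the HMLER value is limited by the length of the gene.

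For single wide peaks the extents in the 2 lists were set beside those of all sites, since HMLER peaks were wider throughout. The locus ratios of 3.10 and 4.88 have no such background. A UBF peak of HMEC was met by 14.6% of all 32274 HMLER peaks, and by 12 of the 14 that were at least as wide as the one at ACTB. In the 4726 HMLER peaks that met HMEC, a median of 32.3% of the peak was covered by HMEC (quartiles 22.5 and 44.5). At ACTB 34.2% of the wide peak was covered and at ACTG1 21.5%, which was below the lower quartile. Against peaks of similar width the reading was different. Among the 12 HMLER peaks with HMEC at least as wide as that at ACTB the median was 22.7% (range 4.89 to 42.0), below the value at ACTB. Among the 6 at least as wide as that at ACTG1 it was 25.9% (range 5.03 to 42.0), nearer to the value at ACTG1. Both actin peaks are among the 14 and the 12, and ACTG1 is among the 6. Each median thus includes the value set beside it. The wide HMLER peak at ACTB was 2.93 times the bases that HMEC covered in it, and that at ACTG1 4.64 times, against a median of 3.09 over all such sites. At ACTB 4 HMEC peaks met 1 HMLER peak, and 11 of these 4726 sites, ACTB included, had as many (0.233%). This number moves with width: 3 of the 12 that were at least as wide as ACTB and met HMEC had as many, ACTB among them. The median over all sites was 1, which was also the number at ACTG1. Seen from HMEC, all 5 UBF peaks at the actin genes met an HMLER peak, and 56.8% of the whole list did. The 5 are not separate cases, since 4 of them met the same wide HMLER peak at ACTB, and the genes were chosen with these peaks known.

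**Figure D2:**
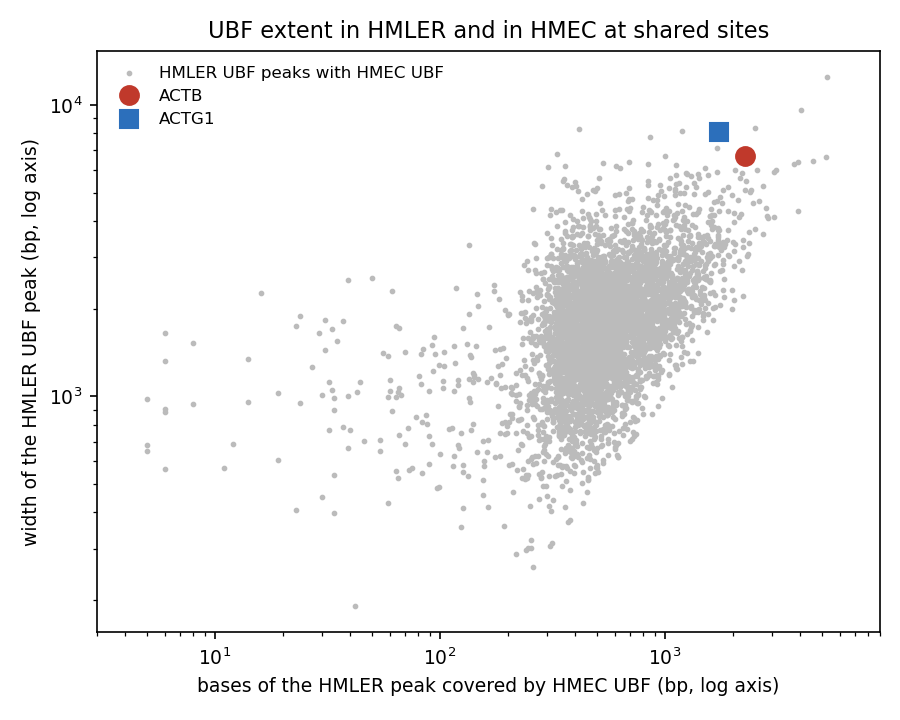
Each grey point is 1 of the 4726 HMLER UBF peaks that met an HMEC UBF peak, with its width (vertical, bp) against the bases of it that HMEC peaks cover (horizontal, bp), both on log axes. ACTB (6667 and 2278 bp) and ACTG1 (8107 and 1746 bp) stand at the upper right.

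By width the actin peaks were at the top of the HMLER list. Of its 32274 peaks 6 were at least as wide as that at ACTG1 (0.0186%, exact binomial 95% interval 0.00682 to 0.0405) and 14 as that at ACTB (0.0434%, 0.0237 to 0.0728). In HMEC 84 of 9478 UBF peaks were at least as wide as that at ACTG1 (0.886%, 0.708 to 1.10) and 364 as the widest at ACTB (3.84%, 3.46 to 4.25). As deposited, the wider peak lay at ACTG1 in both lines. In HMEC this order rested on the 140 bp gap inside ACTB. With peaks 500 bp or less apart joined it turned, with 1.81% of HMEC peaks at least as wide as that at ACTB and 1.99% as that at ACTG1, whereas in HMLER it held, at 0.0936% for ACTB and 0.0735% for ACTG1. The intervals of shares here and below cover counting error over peaks and nothing else. The remaining actin peaks were ordinary: the smaller HMLER peaks stood at 56.1% and 57.8% of their list, and the smaller HMEC peaks at 44.4% to 90.8%.

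Pol I, which was mapped in HMEC and not in HMLER, had no peak within 5 kb of either human gene. The nearest HMEC Pol I peak lay 35.4 kb before the start of ACTB and 41.1 kb before that of ACTG1. Over the whole list 2.72% of HMEC UBF peaks met HMEC Pol I, so in HMEC UBF peaks without a Pol I peak are the usual case. Of the HMLER UBF peaks 3.47% met the Pol I list of HMEC, which does not show where Pol I lies in HMLER. Among the 14 HMLER peaks as wide as that at ACTB 4 met HMEC Pol I, and of the 6 as wide as that at ACTG1 none did. These groups include the actin peaks themselves.

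In NIH3T3 both genes carried broad peaks of Pol II and the active marks, and UBF was listed at Actg1 and not at Actb. The mm9 interval of Actb runs from 143664795 to 143668403 on chromosome 5. That of Actg1 was taken as the rounded stretch from 120204000 to 120211000 on chromosome 11, which is longer than the gene. Distances to the start and end of the gene are therefore given for Actb alone. For Actg1, margins, distances and shares within the interval refer to the rounded stretch and not to the gene. Both genes are read from high to low coordinates, and RefSeq places the microRNA gene Mir6935 inside Actg1.

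At Actb, Pol II covered the whole gene with a peak of 7302 bp, from 143663047 to 143670349, that reached 1946 bp beyond the start and 1748 bp beyond the end. Another 4 Pol II peaks of 502 to 1165 bp lay around it, separated by gaps of 69 to 482 bp. H3K4me3 had 1 peak of 8451 bp, from 143664094 to 143672545, reaching 4142 bp beyond the start and 701 bp beyond the end. The widest H3K9ac peak, of 8883 bp, reached 4215 and 1060 bp beyond the start and the end, and the widest H4 hyperacetylation peak, of 9162 bp, 4723 and 831 bp. All 17 Pol II peaks at least as wide as that at Actb, Actb included, met each of these marks. Over all Pol II peaks H3K4me3 was met by 60.8%, H3K9ac by 61.5% and H4 hyperacetylation by 63.9%. The 3 active marks extended further before the start of Actb than Pol II did, and Pol II further past its end.

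UBF and Pol I had no peak at Actb or its margins. The nearest UBF peak lay 53.4 kb before the start and the nearest Pol I peak 427 kb before it. H3K9me3 was listed inside the gene. Its 2 peaks, of 1838 bp from 143665922 to 143667760 and of 1394 bp from 143667768 to 143669162, were 8 bp apart. They covered 68.5% of the gene, passed its start by 759 bp and lay wholly inside the Pol II, H3K4me3 and acetylation peaks.

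At Actg1, UBF had 1 peak of 1127 bp, from 120209055 to 120210182. Pol I had 1 of 181 bp, from 120209556 to 120209737, which lay inside the UBF peak with its centre 52.5% of the way along it. The UBF peak lay inside a Pol II peak of 6175 bp, from 120206017 to 120212192, with 3038 bp of Pol II below it and 2010 bp above it. That Pol II peak lay inside an H3K4me3 peak of 11734 bp, from 120205932 to 120217666. H3K9ac and H4 hyperacetylation had peaks of 11269 and 9640 bp that held the UBF peak as well. H3K9me3 had 3 peaks, of which the widest, 2262 bp from 120207516 to 120209778, held the Pol I peak and 64.2% of the UBF peak. Over the whole UBF list 50.5% of peaks met Pol II, 16.2% H3K9me3 and 7.32% Pol I, and 20.9% of Pol I peaks met UBF. Seen from the narrowest, Pol I was nested in UBF, UBF in Pol II and Pol II in H3K4me3.

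**Figure D3:**
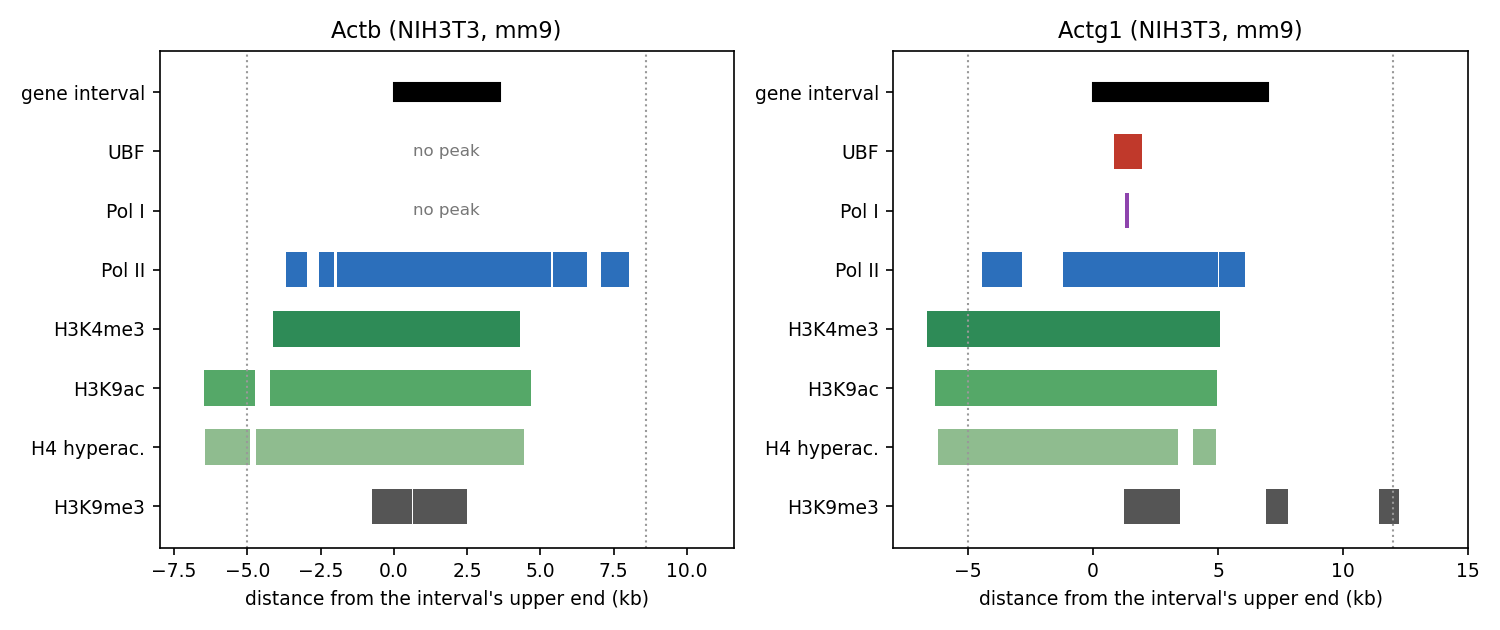
Peaks of the 7 NIH3T3 lists at Actb and Actg1, plotted as distance in kb from the upper end of the interval (negative values lie above it in coordinates, which is before the start for Actb). Dotted lines mark the 5 kb margin. The 7302 bp Pol II peak and the active marks span Actb, the 6175 bp Pol II peak and the active marks cover part of the rounded Actg1 interval, and UBF (1127 bp) and Pol I (181 bp) appear at Actg1 alone; gaps of 8 to 106 bp between neighbouring peaks are hardly visible.

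The extent of UBF at Actg1 was small beside that of Pol II. UBF covered 1127 bp of the locus, 12.8% of the 8837 bp that Pol II covered and 11.2% of the 10068 bp of H3K4me3. It was 11.3% of the extent of H3K9ac, 12.1% of that of H4 hyperacetylation and 30.2% of that of H3K9me3. These shares depend on the margin. Within the rounded interval alone UBF was 22.2% of the extent of H3K4me3 and 22.8% of that of H3K9ac. It was 26.0% of that of H4 hyperacetylation and 47.8% of that of H3K9me3. Within the 6175 bp Pol II peak UBF covered 18.3%. In the 1995 Pol II peaks that met UBF the median was 80.4% (quartiles 61.8 and 98.6), and 30 had a share this low or lower. For a UBF peak of given width this share falls as the peak around it widens, here and for the marks below. The median width was 683 bp over all Pol II peaks and 981 bp over all UBF peaks. Medians over all peaks are thus no comparison at like width. Among the 18 of the 100 widest Pol II peaks with UBF the median was 26.2%, the range 15.3 to 100%, and 2 stood at or below Actg1. Within the H3K4me3 peak UBF covered 9.60%, against a median of 39.3% over 1794 peaks and of 19.1% over the 28 with UBF among the 100 widest. Within the H3K9ac peak UBF covered 10.0%, against medians of 43.4% over 1785 peaks and 19.0% over the 23 among the 100 widest. Within the wider H4 hyperacetylation peak UBF covered 11.7%, against 55.3% over 1884 peaks and 14.8% over the 8 among the 100 widest.

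The UBF peak itself was of ordinary width. Of the NIH3T3 UBF peaks 30.1% (28.6 to 31.6) were at least as wide as that at Actg1. Among the 1770 UBF peaks with Pol II and H3K4me3 the median was 1154 bp (quartiles 976 and 1458), and 53.5% were at least as wide. The Pol I peak was below the median of its list, with 68.1% of 1409 peaks at least as wide. By contrast 17 of 30239 Pol II peaks were at least as wide as that at Actb (0.0562%, 0.0328 to 0.09) and 37 as that at Actg1 (0.122%, 0.0862 to 0.169). Of the 27982 H3K4me3 peaks 105 were at least as wide as that at Actb and 28 as that at Actg1. Among 28308 H3K9ac peaks these counts were 116 and 48, and among 41519 peaks of H4 hyperacetylation 96 and 73. H3K9me3 was less extreme, with 11.2% and 5.66% of 23795 peaks at least as wide. As deposited, Actb had the wider Pol II peak and Actg1 the wider peak of each histone mark. With peaks 500 bp or less apart joined this order turned for H4 hyperacetylation, at 0.562% for Actb and 0.780% for Actg1. Here the limit mattered: the Actb peaks, 205 bp apart, were joined and the Actg1 peaks, 572 bp apart, were not. The order turned for H3K9me3 as well, where the pair of Actb peaks 8 bp apart became 1, at 3.09% for Actb and 9.27% for Actg1. For Pol II, H3K4me3 and H3K9ac it held.

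**Figure D4:**
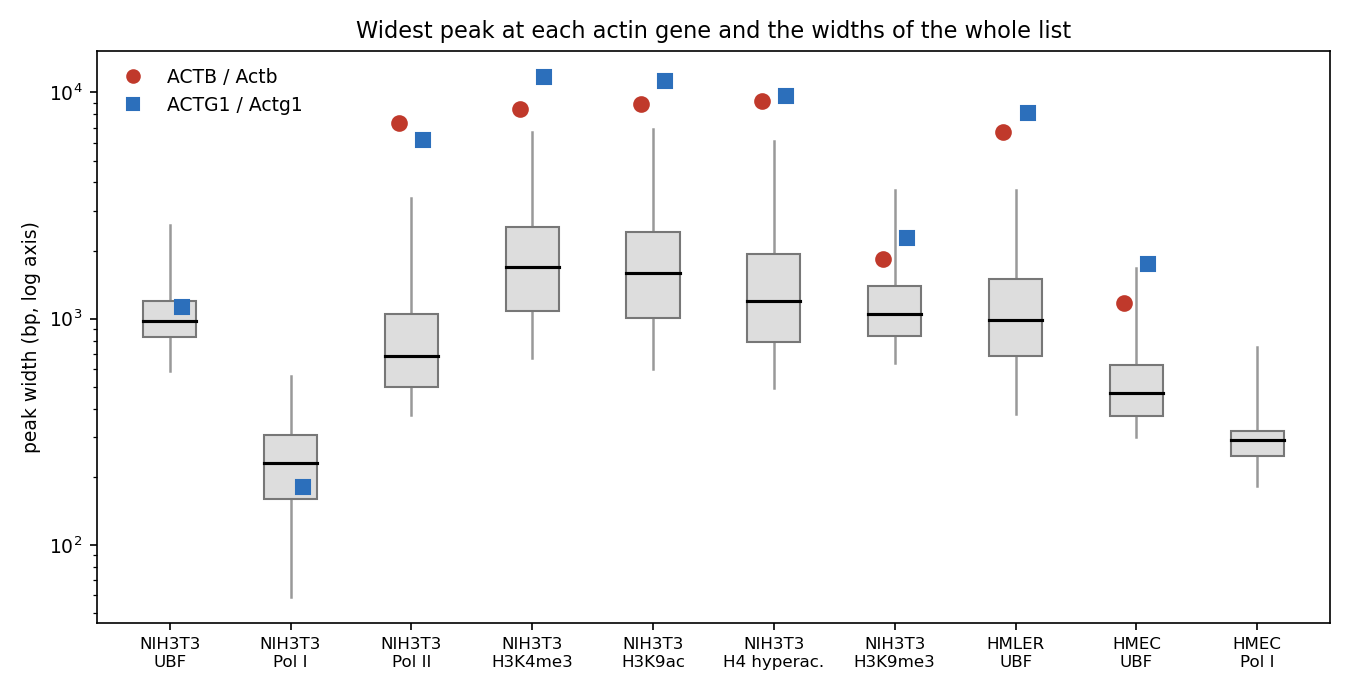
Width in bp (log axis) of the widest peak at each actin gene (circles ACTB and Actb, squares ACTG1 and Actg1) beside the whole list, drawn as a box of quartiles with the median and a line from percentile 5 to percentile 99. Pol II, the active marks and HMLER UBF at the actin genes lie above percentile 99, as does HMEC UBF at ACTG1, whereas UBF (1127 bp) and Pol I (181 bp) at Actg1 lie within the boxes of their lists.

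The difference between Actb without UBF and Actg1 with it was read against other sites. UBF met 6.6% of all Pol II peaks and Pol I 2.57%, and both met 0.595%, 180 of 30239 peaks, to which Actg1 belongs. Adding H3K9me3 left 84 peaks (0.278%), Actg1 among them. With Pol II peaks in 10 classes of width the share with UBF was 2.35% in the narrowest class and 21.5% (20.1 to 23.0) in the widest, which starts at 1550 bp. It was not higher among the very widest peaks, where Actb and Actg1 stand. Of the 100 widest, 18 met UBF (11.0 to 26.9%), of the 37 as wide as that at Actg1 7 did, and of the 17 as wide as that at Actb 2 did. Of the Pol II peaks at least as wide as that at Actb 15 of 17 were thus without UBF, Actb itself among the 15. Likewise Actg1 is among the 7 of 37 with UBF, and the counts of wide histone peaks below include the actin peaks. For H3K4me3 peaks the background was 6.41% with UBF, and of the 105 as wide as that at Actb 30 met UBF. For H3K9ac the background was 6.31% and 24 of 116 as wide as that at Actb met UBF, and for H4 hyperacetylation 4.54% and 7 of 96. Overlap was counted from 1 bp, so a wider peak can meet any list more often by length alone, which was not tested.

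H3K9me3, listed at both genes, was more frequent at wide active sites. It met 13.2% of all Pol II peaks and 55 of the 100 widest (44.7 to 65.0%). Of the 17 as wide as that at Actb 9 carried it, and of the 37 as wide as that at Actg1 25. At H3K4me3 peaks it stood at 13.9% overall and at 59 of the 105 as wide as that at Actb. H3K9me3 was thus frequent at Pol II peaks at least as wide as those at the actin genes, and not particular to these genes. The counts include the actin peaks themselves, and the interval for 9 of 17 was wide (27.8 to 77.0%). With overlap counted from 1 bp, wider peaks can meet H3K9me3 more often by length alone, which was not tested. Whether 1 cell carries the silent and the active marks together cannot be told from lists over a culture.

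**Figure D5:**
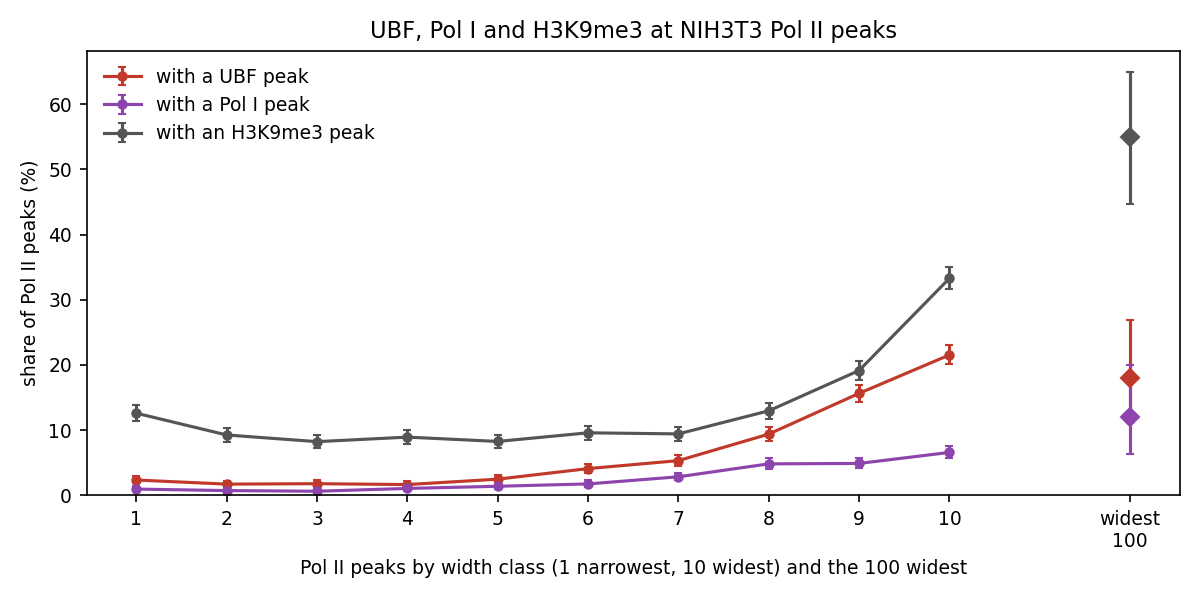
Share in percent of NIH3T3 Pol II peaks that meet a UBF, Pol I or H3K9me3 peak, in 10 width classes of about 3024 peaks each and in the 100 widest (diamonds), with exact 95% binomial intervals. The UBF share is 21.5% in class 10 and 18% in the 100 widest, to which Actb (no UBF) and Actg1 (UBF) belong, whereas H3K9me3 stands at 33.3% and 55%. Overlap was counted from 1 bp, so wider peaks can meet any list more often by length alone.

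The 5 kb margin decided many of the smaller peaks. The counts at ACTB, ACTG1, Actb and Actg1 were 6, 3, 12 and 12 with it. They were 3, 2, 6 and 10 without a margin, and 6, 5, 18 and 16 with 10 kb. At ACTB the outermost peak inside it was the HMEC peak 1544 bp away and the first outside an HMLER peak of 1791 bp at 12264 bp. At ACTG1 an HMLER peak at 4580 bp was inside and one of 1618 bp at 5485 bp outside. At Actb the edge fell between an H4 hyperacetylation peak at 4928 bp and a Pol II peak of 537 bp at 5176 bp. Wider peaks of H3K4me3 (3130 bp), H3K9ac (3138 bp) and H4 hyperacetylation (2823 bp) lay outside it, at 6385, 6366 and 6581 bp. At Actg1 the edge fell between H3K9me3 peaks 4437 and 7378 bp from the rounded interval. No UBF or Pol I peak of NIH3T3 lay near the margin.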

How the data were processed

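Peaks were called by the authors, who deposited positions (chromosome, start and end, in 3 columns) for each antibody and line, and no height, score or read count. The submitters' processing notes name mm9, hg19, CASAVA 1.8.2, BWA and Picard. How peaks were called, at what threshold, and whether the 2 UBF replicates of NIH3T3 that the design mentions were pooled, the sources used here do not say. A peak wider than another may come from deeper sequencing or another threshold, so widths were ranked within a list. Ratios between lists within single wide peaks were set beside the same ratio over all sites. Ratios over a whole locus or gene have no such background. The other unit, positions in bases, was used as deposited by the authors, and width is end minus start. The intervals of the 4 genes were supplied with the choice of genes and not read from an annotation. A peak counted with 1 bp within 5 kb of the interval. The members and lists were chosen with earlier results of these data known; neighbouring genes were to be named from RefSeq where a UBF peak among the widest 1% lay within 200 kb. Shares carry exact (Clopper-Pearson) 95% intervals (scipy 1.17.1). The overlap code was tested on simulated data. Promoter sequence is from RefSeq (GRCm38.p6), which matched 1 of the mouse genes. Gene names and neighbours come from the same assembly, whose coordinates were not set against mm9. Alternatives were other margins, a 50% overlap, joined peaks and other backgrounds.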

Additional observations from a re-analysis of the deposited data

How the results depend on the processing

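No paired analysis was possible because each list stands for 1 sample and no test was made, and no replicate could be left out. Of 112 alternatives over 32 values 76 stayed within the interval of a share or within 1.5 times a count or ratio, and 36 moved. Many of the 76 could not have moved, so their number does not measure robustness. The widest peak of each list touched its gene, so dropping the margin left its width share unchanged. The UBF extents at Actb stayed at 0 at every margin, since the nearest UBF peak lay 53.4 kb away. Without a margin the peaks fell to 3 at ACTB, against 6, and to 6 at Actb, against 12, and a 10 kb margin gave 5 at ACTG1, against 3. Without a margin the HMLER to HMEC ratio was 2.06 at ACTB and 1.66 at ACTG1. Joining peaks 500 bp or less apart gave 6 at Actb. It moved the share of peaks at least as wide to 0.0936% (HMLER, ACTB), 0.0735% (HMLER, ACTG1), 1.81% (HMEC, ACTB), 1.99% (HMEC, ACTG1), 0.175% (Pol II, Actb) and 0.635% (Pol II, Actg1). The histone shares moved to 0.698% and 0.202% (H3K4me3, Actb and Actg1), 0.967% and 0.499% (H3K9ac), 0.562% and 0.780% (H4 hyperacetylation) and 3.09% and 9.27% (H3K9me3). Joining thus turned the order of the genes for UBF in HMEC, H4 hyperacetylation and H3K9me3. Dropping the margin turned the order of the HMLER to HMEC ratios and gave UBF extents at Actg1 of 22.2% to 47.8% of the histone marks. Among peaks with H3K4me3 and Pol II it was 0.0925% for Pol II at Actb, 0.185% for Pol II at Actg1 and 53.5% for UBF at Actg1. The cause was not tested. With unknown depth, a missing peak does not show absent binding.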

Other observations

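In HMLER and NIH3T3 another UBF peak among the widest 1% of its list lay on the same side of each actin gene, at lower coordinates. In HMLER it lay 96.5 kb below ACTB (12457 bp, from 5457780 to 5470237) and 102 kb below ACTG1 (6419 bp, from 79368515 to 79374934). In NIH3T3 it lay 84.8 kb below Actb (6313 bp, from 143573699 to 143580012) and 105 kb below the Actg1 interval (4346 bp, from 120094909 to 120099255), where they were the second and the fifth widest of 3704 UBF peaks. HMLER had further peaks among its widest 1% 60.5 kb above ACTB (5877 bp), nearer than the one below, and 156 kb below ACTG1 (6006 bp). How often other genes have such a peak within 200 kb was not counted. In HMEC a UBF peak of 2039 bp lay 105 kb below ACTG1, and no HMEC UBF peak within 200 kb of ACTB was among the widest 1% of that list. RefSeq lists Slc29a4, Tnrc18 and Fbxl18 on that side of Actb, and Slc38a10 and Bahcc1 on that side of Actg1. The peaks were not assigned to these genes, since the builds differ.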
